A study of Homo sapiens with 9 samples.

Results

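Aminoacyl-tRNA synthetases are the enzymes that join each amino acid to its tRNA, and their mRNAs were followed across all 9 arrays of a study of differentiation in 2 leukemia cell lines. The members were chosen by symbol, with earlier results of these data known. They are 35 genes, 19 for the enzymes of the cytosol and 16 for those of the mitochondrion. Of these, 32 had a probe set that names a single gene (17 cytosolic and 15 mitochondrial), against 9890 genes measured in K562 cells and 9641 in HEL cells by the same rule. All 32 reached the minimum log2 value of 5 in at least 1 array of each line. The probe sets of MARS1, QARS1 and TARS2 also list a microRNA gene and were kept out of every count.

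The study asked how expression after the hypomethylating agent decitabine (DAC) compares with that after hemin and after the phorbol ester PMA. K562, a human leukemia line with erythroid features, was measured untreated (2 arrays), with 25 µM hemin, 50 µM hemin, 100 nM DAC and 5 nM PMA (1 array each). HEL, another human leukemia line with erythroid and megakaryocytic features, had 1 array each of untreated cells, 20 nM DAC and 5 nM PMA. Hemin is the oxidized form of heme and is used to push K562 cells towards the erythroid lineage, while PMA activates protein kinase C and pushes them towards megakaryocytes. These doses are those of the sample titles. The shared protocol names 50 µM hemin only and DAC at 50 and 100 nM, with 3 pulses of 24 h and harvest at 144 h, and PMA for 48 h. The sources used here do not state the time in hemin. All values are from established lines in culture, and the labels do not say that the untreated K562 arrays came from separate cultures. The p-values therefore rest on the spread between these 2 arrays, possibly of technical origin, and on the difference between the 2 hemin doses.

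In human cells most amino acids have a pair of enzymes, encoded in the nucleus by separate genes, of which the symbol ending in 1 names the cytosolic enzyme and the symbol ending in 2 the mitochondrial enzyme. GARS1 and KARS1 each encode the enzymes of both compartments. FARSA and FARSB encode the subunits of the cytosolic phenylalanine enzyme, and EPRS1 encodes a fused enzyme for glutamate and proline. When tRNAs lack their amino acid, the kinase GCN2 (EIF2AK4) phosphorylates the initiation factor eIF2alpha, and translation of the transcription factor ATF4 rises. HRI (EIF2AK1), the kinase of the same family that hemin inhibits, acts on the same factor and is best known from red cell precursors. Many cytosolic synthetase genes are known targets of ATF4, which binds a composite C/EBP-ATF element. For this reason the cytosolic members are also given as those linked to ATF4 (13 genes, 12 measured) and the other 6 (5 measured: FARSA, FARSB, HARS1, KARS1 and RARS1). That grouping came from general knowledge, but was drawn up with a lower level of ATF4 targets at 50 µM hemin already known, so it is not independent of these data. It is also 1 of 25 lists or groupings summarized over 8 comparisons.

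The core of the C/EBP-ATF element, TGATGNAA, was looked for on both strands of the promoter windows of RefSeq (GRCh38.p14, from 250 bases before to 50 after a start site). It lay in 3.62% of all 35116 windows. Of the 35 members 30 had a window, with 39 windows in all, and 8 of these windows held the core. By gene they were those of 7 of the 10 ATF4-linked cytosolic genes, 0 of 6 other cytosolic genes and 1 of 14 mitochondrial genes. No entry was found for VARS1, YARS1, LARS1, AARS2 and VARS2. The 8 stretches are shown so that the letters behind these counts can be read. Each is 30 bases long, read on the strand that carries TGATGNAA, with the core in capitals.
AARS1 (chr16:70289675-70289704, plus strand): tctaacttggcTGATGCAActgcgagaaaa
CARS1 (chr11:3057407-3057436, plus strand): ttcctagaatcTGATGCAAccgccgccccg
GARS1 (chr7:30594834-30594863, minus strand): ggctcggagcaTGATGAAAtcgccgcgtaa
IARS1 (chr9:92293692-92293721, plus strand): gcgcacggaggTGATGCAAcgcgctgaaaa
MARS1 (chr12:57488053-57488082, minus strand): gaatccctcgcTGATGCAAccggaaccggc
NARS1 (chr18:57621804-57621833, minus strand): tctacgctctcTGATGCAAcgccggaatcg
TARS1 (chr5:33440956-33440985, minus strand): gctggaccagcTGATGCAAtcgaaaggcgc
YARS2 (chr12:32756076-32756105, minus strand): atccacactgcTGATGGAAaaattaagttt

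The form TGATGCAA, which is contained in TGATGNAA, stood in 6 of these genes, in 6 of 39 member windows and in 0.866% of all windows. GARS1 and YARS2 held other letters at the open position. In all, 5 motifs were searched, every one after the expression values had been seen. The others were ATTGCATCA, whose letters overlap TGATGCAA read on the other strand, in 1 of 39 member windows and 0.236% of all windows, GGGCGG in 27 of 39 and 45%, and CCGGAAG in 19 of 39 and 10.3%. These shares are descriptions with no test, and a match is not a binding site. The windows of WARS1, SARS1 and EPRS1, which are ATF4-linked too, did not hold TGATGNAA.

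The arrays matched their labels in broad terms. Of 7 erythroid marker genes with a probe set, 6 reached a log2 value of 5 in every K562 array and 6 in every HEL array, while 4 of 4 megakaryocyte markers reached 5 in every HEL array and 0 of 4 in every K562 array. With PMA the platelet integrin gene ITGB3 was at 12.47 in K562 cells against 2.93 and 2.37 untreated. Of the other megakaryocyte markers, ITGA2B was at 11.26 with PMA against 7.48 and 7.82 untreated. GP9 and PF4 did not respond, with the same value below 5 in every K562 array, PMA included. The untreated K562 arrays differed by over 1.5-fold for 24.4% of genes, and 5 of 7 erythroid markers were over 1.5-fold lower in the untreated replicate 2. The part of that difference in the results below was not tested. The T cell gene CD3D was at 8.51 to 12.51 in the K562 arrays. In array data of whole cultures, fewer cells of a kind and less RNA per cell cannot be told apart.

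At 50 µM hemin the cytosolic and mitochondrial synthetases stood on opposite sides of the untreated level. Against the untreated mean, the median log2 difference was -0.27 for the 17 cytosolic and 0.29 for the 15 mitochondrial genes, beside -0.02 for all 9890 genes. Without untreated replicate 2 the cytosolic median was -0.11, and without replicate 1 the mitochondrial median was 0.48. Of the cytosolic genes 7 were over 1.5-fold lower and 0 over 1.5-fold higher, whereas of the mitochondrial genes 6 were over 1.5-fold higher and 1, SARS2, was over 1.5-fold lower. Without untreated replicate 1 the last count was 0 and 1 cytosolic gene was over 1.5-fold higher. Over all genes 20.8% were over 1.5-fold lower and 15.4% over 1.5-fold higher. At 25 µM no member was beyond 1.5-fold of the untreated mean on the probe set used, against 9.68% of genes lower and 7.91% higher. On another kept probe set the log2 difference at 25 µM was 0.89 for YARS1, 0.70 for SARS1 and 0.64 for AARS2. That of AARS2 was at 1.02 at 50 µM. The untreated arrays were also unlike for several members. Without untreated replicate 2 the counts at 25 µM were 2 cytosolic and 2 mitochondrial members lower and 3 mitochondrial members higher, and without replicate 1 they were 1 cytosolic lower and 0 others. Against the mean of both, the medians were -0.04 and 0.19. The gap between these (-0.23) was -0.0605 without untreated replicate 2. Between the untreated arrays the medians moved by 0.00 and -0.13 (replicate 2 minus replicate 1).

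With both doses as 1 group, no member passed limma's test (0 of 32, and 0 of 9890 genes, 0%), and 2 members, LARS2 and NARS2, were at an unadjusted p under 0.05 beside 1012 of all genes. The fit counts the difference between doses as spread. With each dose as its own group, with the dose as a number and in 15 other settings the number of members called was again 0, including the methods' t-test, which called 7 of all genes. The hemin values that follow are therefore levels and differences, of which none is called.

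**Figure D1:**
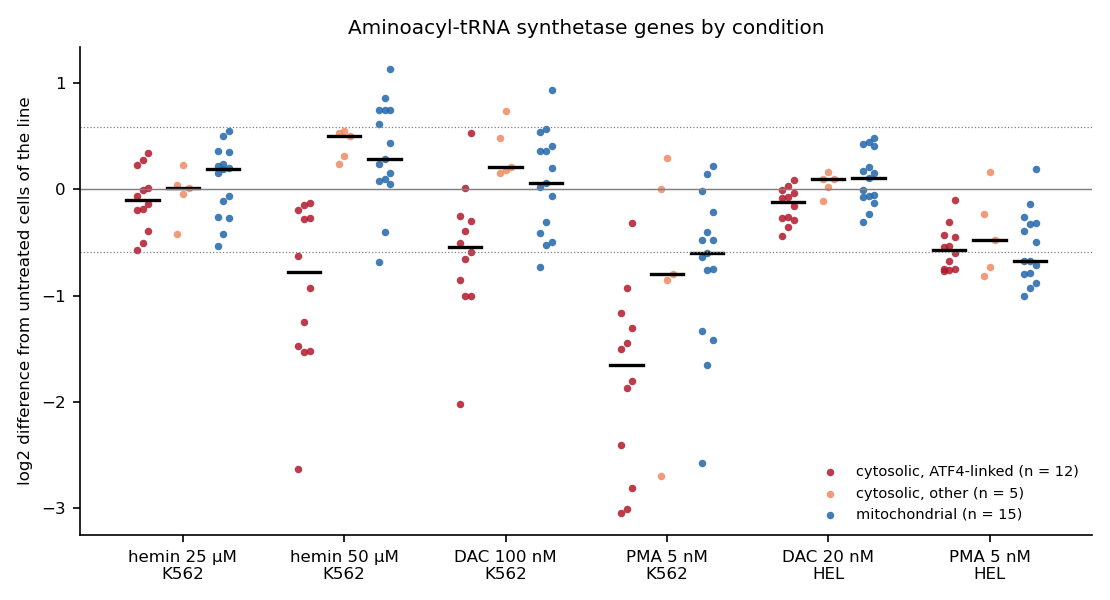
Log2 difference from untreated cells of the same line (vertical axis) for the 32 measured genes in each treated condition (horizontal axis), 1 point a gene, with black bars at the medians and dotted lines at 1.5-fold. At 50 µM hemin the ATF4-linked cytosolic genes (median -0.78) lay below 0 and the other cytosolic (0.50) and most mitochondrial genes (0.29) above it, while with PMA the medians of all 3 groups were below 0 in both lines.

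Within the cytosolic class the measured groups lay apart at 50 µM against the untreated mean. The 12 measured ATF4-linked genes were all below the untreated mean, between -2.62 and -0.12 (median -0.78), and the 5 others were all above it, between 0.24 and 0.55 (median 0.50). Leaving out an array, other scaling and other choices of probe set gave a difference of medians between -1.33 and -1.05, against -1.28 in the values given. The groups overlapped without untreated replicate 1, where VARS1 was at 0.50 and KARS1 at 0.23. They also overlapped when the shared probe sets were counted, since that of QARS1, which is not ATF4-linked, was at -0.43. On their other kept probe sets VARS1 was at 0.16 and KARS1 at 0.03. At 25 µM the same medians were -0.10 and 0.02. Untreated replicate 2 minus replicate 1 gave 0.04 and -0.05.

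WARS1, the tryptophan enzyme, which is also known as an interferon-induced gene, had the largest difference of any member. Its log2 value was 12.87 and 13.19 untreated, 12.53 in 25 µM and 10.41 in 50 µM hemin, 11.01 with DAC and 9.99 with PMA. It was 6.17-fold lower at 50 µM, and all treated arrays were below both untreated arrays. The limma estimate over both hemin doses was -1.56 (standard error 0.78, adjusted p = 0.518). GARS1, the glycine enzyme of both compartments, was at 13.45 and 13.11 untreated, 13.09 at 25 µM, 11.75 at 50 µM, 12.62 with DAC and 11.47 with PMA. It was 2.89-fold lower at 50 µM and almost level with untreated replicate 2 at 25 µM.

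AARS1, the alanine enzyme, was at 12.01 and 12.07 untreated, 12.03 at 25 µM, 10.52 at 50 µM, 11.04 with DAC and 9.03 with PMA. CARS1, for cysteine, was at 12.22 and 12.30 untreated, 12.60 at 25 µM, 10.79 at 50 µM, 11.25 with DAC and 10.39 with PMA. SARS1, for serine, was at 13.21 and 13.13 untreated, 12.78 at 25 µM, 11.92 at 50 µM, 12.32 with DAC and 12.00 with PMA. In these 3 genes 50 µM hemin and DAC lay below the untreated arrays, with DAC between 50 µM hemin and untreated. The same order was seen in WARS1, GARS1, YARS1, SARS2 and WARS2. The other kept probe sets of SARS1 and YARS1 did not show it. On these, DAC and 50 µM hemin were at 9.22 and 9.58 for SARS1 and at 5.35 and 6.77 for YARS1. YARS1, for tyrosine, was at 12.20 and 12.19 untreated and 11.27 at 50 µM, and its other kept probe set gave a difference of 0.01 there in place of -0.92. TARS1, for threonine, was at 13.04 and 12.59 untreated and 12.19 at 50 µM, a difference of -0.63.

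Differences at 50 µM overlapped between ATF4-linked genes with and without the core shown above. Among ATF4-linked genes whose window holds TGATGNAA, the differences were -1.53 for GARS1, -1.52 for AARS1, -1.47 for CARS1, -0.63 for TARS1, -0.27 for IARS1 and -0.12 for NARS1. Among those whose window does not, they were -2.62 for WARS1, -1.25 for SARS1 and -0.15 for EPRS1. The probe sets of MARS1, for methionine, whose window holds the core, are shared with MIR6758, and the 3 of them had log2 differences of -1.79 to -1.11 at 50 µM. For reference, the AARS1 promoter before its start site is given in full on its own strand, with the core, read here from the other strand, in capitals.
AARS1 (chr16:70289507-70289756, minus strand): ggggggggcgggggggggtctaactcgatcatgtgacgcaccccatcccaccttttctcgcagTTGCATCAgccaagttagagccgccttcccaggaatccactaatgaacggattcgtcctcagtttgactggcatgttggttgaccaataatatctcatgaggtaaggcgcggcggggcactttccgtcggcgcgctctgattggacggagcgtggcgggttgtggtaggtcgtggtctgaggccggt

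The remaining ATF4-linked members were close to the untreated level at 50 µM, with differences of -0.28 for VARS1, -0.27 for IARS1, -0.19 for LARS1, -0.15 for EPRS1 and -0.12 for NARS1. VARS1, the valine enzyme, was at 11.02 and 9.47 untreated, 9.68 at 25 µM, 9.97 at 50 µM, 10.78 with DAC and 9.93 with PMA, so the treated arrays lay within the range of the untreated ones. IARS1, LARS1 and EPRS1 encode enzymes of the multisynthetase complex, in which several cytosolic synthetases are held together. Of its 7 members in the list, 5 were measured, and at 50 µM these were between -0.27 and 0.50 with 0 beyond 1.5-fold. The 12 measured cytosolic members outside the complex had a median of -0.78, with 7 over 1.5-fold lower. MARS1 and QARS1 are the complex members with shared probe sets, and those of MARS1 (-1.79 to -1.11, above) were beyond 1.5-fold. That comparison of complex and non-complex genes was added after the values were seen.

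**Figure D2:**
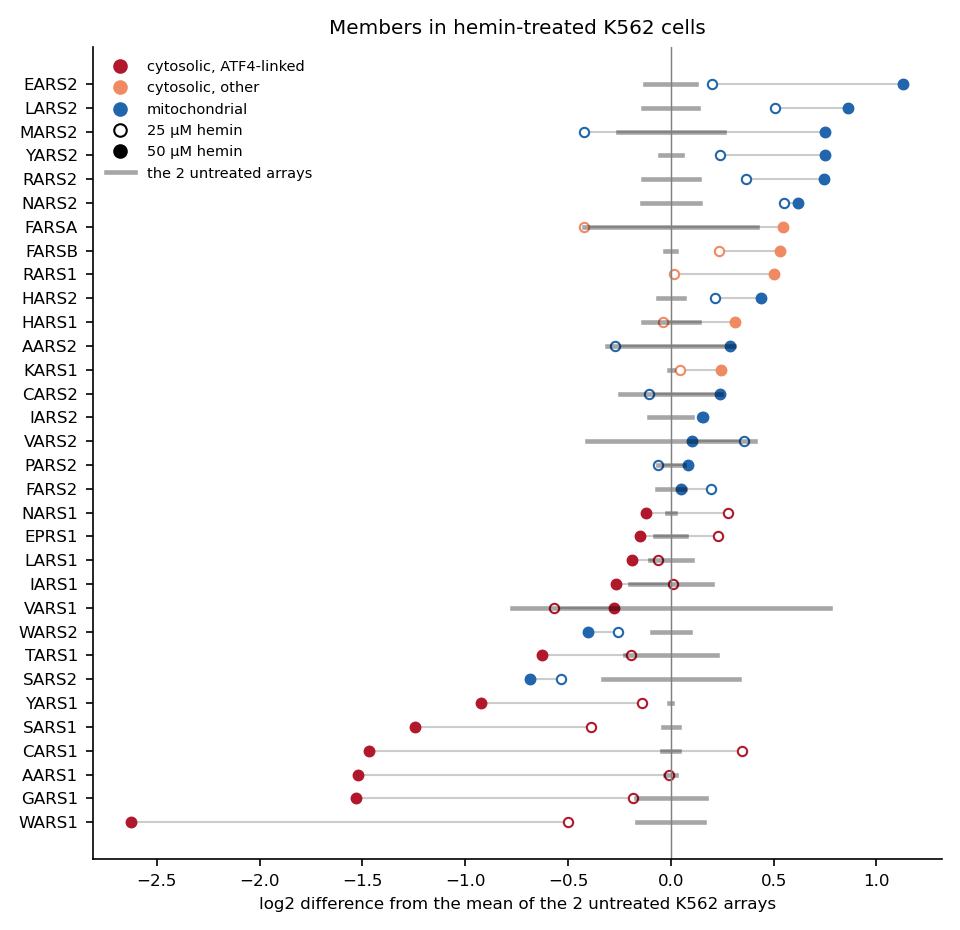
Log2 difference against the untreated K562 mean (horizontal axis) for each of 32 genes (vertical axis, in order of the value at 50 µM hemin), with open points for 25 µM, filled points for 50 µM and grey bars for the range of the 2 untreated arrays. WARS1 was lowest at -2.62 and EARS2 highest at 1.13, and the bar of VARS1 is the widest.

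Among the cytosolic genes above the untreated mean, FARSA was at 10.56 and 9.72 untreated, 9.72 at 25 µM, 10.69 at 50 µM, 10.88 with DAC and 9.35 with PMA. Its untreated arrays differed by -0.84 (replicate 2 minus replicate 1), more in size than its difference of 0.55 at 50 µM. FARSB, the partner subunit, was at 11.79 and 11.74 untreated, 12.00 at 25 µM and 12.30 at 50 µM. RARS1, for arginine, was at 10.97 at 25 µM and 11.46 at 50 µM. Its deposited value was the same, 10.96, in 5 of 9 arrays, including both untreated K562 arrays and the PMA arrays of both lines, so its spread and its differences of 0.00 are of limited use. PARS2 held 1 value in 3 arrays.

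Of the mitochondrial genes, EARS2, for glutamate, was at 7.93 and 7.69 untreated, 8.01 at 25 µM, 8.94 at 50 µM, 8.75 with DAC and 6.16 with PMA. It was 2.19-fold higher at 50 µM than untreated. LARS2, for leucine, was at 8.89 and 9.16 untreated, 9.53 at 25 µM, 9.88 at 50 µM, 9.38 with DAC and 8.55 with PMA, and its limma estimate over both doses was 0.68 (standard error 0.23, adjusted p = 0.481). NARS2, for asparagine, was at 10.11 and 10.40 untreated, 10.81 at 25 µM, 10.88 at 50 µM, 9.76 with DAC and 7.69 with PMA. Both hemin arrays were above both untreated arrays in LARS2 and NARS2, and likewise in EARS2, HARS2, IARS2, RARS2 and YARS2. On another kept probe set of LARS2 and of RARS2 this did not hold. There LARS2 was at 7.46 at 25 µM and in both untreated arrays, and RARS2 at 10.23 at 25 µM against 9.90 and 10.29. That value of LARS2 was identical as deposited, so it is of limited use, like the repeated value of RARS1. MARS2, for methionine, was at 7.24 and 6.73 untreated, 6.56 at 25 µM and 7.73 at 50 µM, so its hemin arrays lay on either side of the untreated ones.

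YARS2 and RARS2 were also over 1.5-fold higher at 50 µM, by 0.75 and 0.74 on the log2 scale. RARS2 was at 10.31 and 10.59 untreated, 10.81 at 25 µM and 11.19 at 50 µM, and YARS2 at 9.92 and 9.81 untreated, 10.10 at 25 µM and 10.61 at 50 µM. SARS2, for serine, was at 7.76 and 7.10 untreated, 6.89 at 25 µM and 6.74 at 50 µM, and WARS2, for tryptophan, at 8.04 and 8.22, then 7.87 and 7.72. These were the 2 mitochondrial members below the untreated mean at 50 µM, with differences of -0.68 and -0.40. The remaining 7 (AARS2, CARS2, FARS2, HARS2, IARS2, PARS2 and VARS2) were between 0.05 and 0.44. The shared TARS2 probe set was at 7.80 and 7.51 untreated and 7.75 at 50 µM.

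With PMA in K562 cells nearly all members were lower. The median log2 difference was -1.44 for the cytosolic and -0.59 for the mitochondrial genes, beside -0.10 for all genes. The gap between the classes (-0.85) was -0.53 without untreated replicate 2 and -1.21 without replicate 1. Of the cytosolic genes 14 of 17 were over 1.5-fold lower and of the mitochondrial 8 of 15, and 0 members were over 1.5-fold higher, against 30.1% of all genes lower and 25.8% higher. In limma 6 of 32 members fell and 0 rose, while over all genes 16.8% were called (765 higher and 899 lower), of which those lower make 9.09% of the genes tested. PMA has 1 array, which the fit assumes to vary like the others, and leaving out any 1 of the untreated or hemin arrays, or giving each hemin dose its own group, left 0 members and 0 genes called.

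The members that fell were 5 cytosolic genes and NARS2. FARSB had the smallest p, with 9.07 with PMA against 11.79 and 11.74 untreated, a log2 change of -2.70 ± 0.25 (SE, adjusted p = 0.0116, limma). FARSA, which encodes its partner subunit, was at 9.35 against 10.56 and 9.72. NARS2 was at 7.69 against 10.11 and 10.40 (log2 change -2.57 ± 0.24 SE, adjusted p = 0.0122, limma). NARS1, its cytosolic counterpart, was at 11.90 against 13.19 and 13.22 (adjusted p = 0.0515). IARS1, for isoleucine, was at 11.42 against 13.63 and 14.02 (log2 change -2.41 ± 0.30 SE, adjusted p = 0.0191, limma). YARS1 was at 9.38 against 12.20 and 12.19 (log2 change -2.81 ± 0.40 SE, adjusted p = 0.0245, limma).

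LARS1, for leucine, was at 10.63 with PMA against 11.97 and 12.17 untreated, with 12.01 and 11.88 in hemin and 11.77 with DAC (log2 change -1.44, adjusted p = 0.0313 from limma). EPRS1 was at 10.71 with PMA against 12.14 and 12.29 untreated, with 12.44 and 12.06 in hemin and 11.82 with DAC (log2 change -1.50, adjusted p = 0.0405 from limma). LARS1, EPRS1 and IARS1 are the members of the multisynthetase complex that passed, of 5 measured, where 9.09% of all genes were called lower. WARS1 and AARS1 had the largest differences with PMA, -3.04 and -3.01, and did not pass (adjusted p = 0.11 and 0.0606 from limma). In both, the 50 µM hemin array lay far from the 25 µM array, a distance that the fit counts as spread.

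The largest mitochondrial differences after NARS2 were in EARS2 (-1.65, adjusted p = 0.0897 from limma) and CARS2, for cysteine, which was at 6.13 with PMA against 7.79 and 7.30 (-1.41, adjusted p = 0.0633). EARS2 and LARS2 were above the untreated mean at 50 µM hemin and below it with PMA, as were NARS2 and most other mitochondrial genes. Members above the untreated mean with PMA were HARS1, HARS2 and RARS2, by 0.29, 0.22 and 0.14. HARS1, the cytosolic histidine enzyme, was at 10.04 and 9.77 untreated, 9.87 at 25 µM, 10.22 at 50 µM, 10.39 with DAC and 10.20 with PMA. HARS2, its mitochondrial counterpart, was at 7.78 and 7.65 untreated, 7.93 at 25 µM, 8.15 at 50 µM, 8.08 with DAC and 7.94 with PMA. Neither was beyond 1.5-fold in any treated K562 array.

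HARS1 and HARS2 are neighbours read in opposite directions. In RefSeq their start sites lie on chromosome 5 at 140691370 (HARS1, minus strand) and 140691455 (HARS2, plus strand), and their windows overlap. The pair was picked after both members were seen to move little in K562 cells. With PMA in HEL cells the log2 difference was -0.24 for HARS1 and -0.67 for HARS2. The 84 bases between the start sites are shown, read on the strand of HARS2, and a link between them and these levels was not tested.
HARS1-HARS2 (chr5:140691371-140691454, plus strand): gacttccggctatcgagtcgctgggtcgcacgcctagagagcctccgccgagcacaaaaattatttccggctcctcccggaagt

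**Figure D3:**
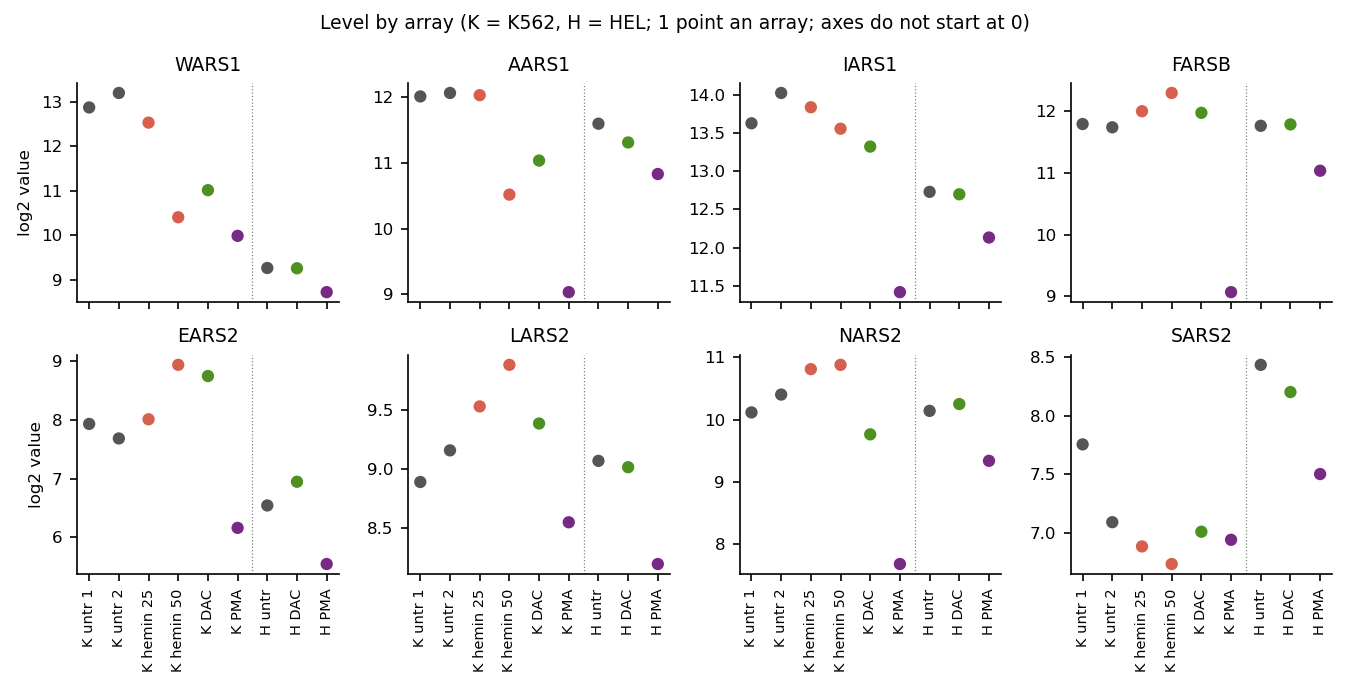
Log2 value (vertical axes, which do not start at 0) of 8 genes in each of the 9 arrays (horizontal axes), 1 point an array, with grey for untreated, red for hemin, green for DAC and purple for PMA. WARS1 went from 12.87 and 13.19 untreated to 10.41 at 50 µM hemin in K562 and was at 9.27 in untreated HEL, while EARS2 was at 8.94 at 50 µM and 6.16 with PMA in K562.

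With DAC in K562 cells no member passed the test (0 of 32), and 6 of 9890 genes did (0.0607%), with 0 members and 1072 genes at an unadjusted p under 0.05. The median log2 difference was -0.30 for the cytosolic and 0.06 for the mitochondrial genes, beside -0.02 for all genes. The gap (-0.36) was -0.21 without untreated replicate 2. Of the cytosolic genes 6 were over 1.5-fold lower, all ATF4-linked, and 1, FARSA, was over 1.5-fold higher, against 17.7% and 14.8% of all genes. The number higher was 3 without untreated replicate 1 and 0 without replicate 2. The largest differences were in WARS1 (-2.02), AARS1 and CARS1, whose levels with DAC are given above, and the ATF4-linked and other medians were -0.54 and 0.21. Among the mitochondrial genes EARS2 had a log2 difference of 0.94 and VARS2, for valine, one of -0.73, the 2 mitochondrial genes beyond 1.5-fold. Without untreated replicate 1, 4 were higher and 2 lower, and without replicate 2, 2 were lower. VARS2 was at 8.95 with DAC against 9.26 and 10.08 untreated, so its untreated arrays differed by 0.81. MARS2 was at 7.56 with DAC and AARS2, for alanine, at 9.19 against 8.96 and 8.34 untreated. FARS2, for phenylalanine, was at 8.50 against 9.09 and 8.96. DAC and hemin were compared with the same untreated arrays.

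In HEL cells every condition has 1 array, so the values carry no test. With PMA the median log2 difference was -0.54 for the cytosolic and -0.67 for the mitochondrial genes, beside -0.08 for all genes. Of the cytosolic genes 8 of 17 and of the mitochondrial 8 of 15 were over 1.5-fold lower and 0 were higher, against 16.8% of all genes lower and 14.9% higher. The gap between cytosolic and mitochondrial medians was 0.13 in HEL cells and -0.85 in K562 cells. The largest differences were in EARS2, which was at 6.54 untreated and 5.54 with PMA, SARS2 at 8.43 and 7.50, and LARS2 at 9.07 and 8.19. Of the cytosolic genes FARSA was at 10.42 and 9.61, AARS1 at 11.60 and 10.83 and LARS1 at 12.21 and 11.46. YARS2 and RARS1 were above the untreated HEL level, by 0.19 and 0.17. HARS2 had a log2 difference of -0.67 in HEL cells and 0.22 in K562 cells, and the difference between lines was not tested.

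**Figure D4:**
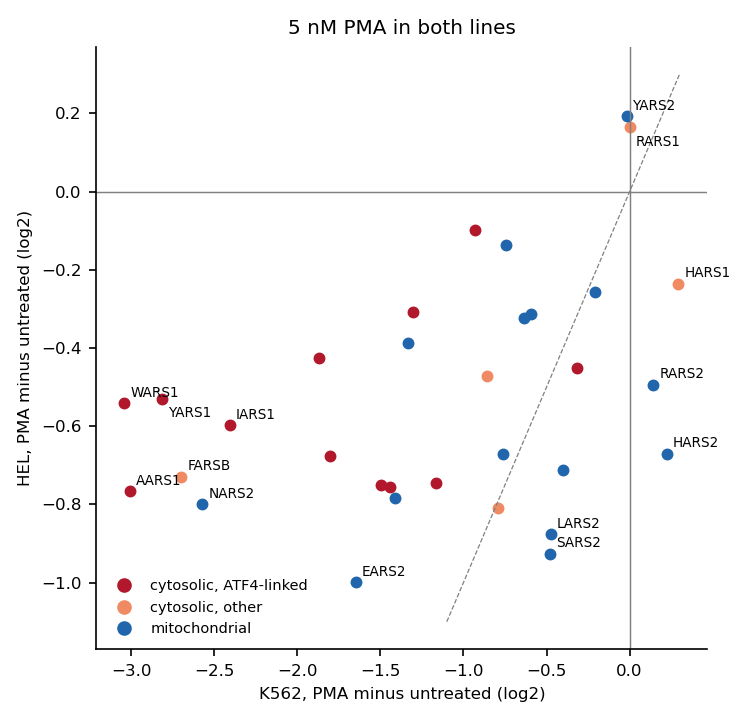
Log2 difference between PMA and untreated cells in K562 (horizontal axis, against the mean of 2 untreated arrays) and in HEL (vertical axis, against 1 array), 1 point a gene, 32 genes; the dashed line marks equal differences. Of the 32 genes 27 were below 0 in both lines, and WARS1, AARS1, YARS1, FARSB, NARS2 and IARS1 lay farthest to the left.

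The PMA arrays of K562 and HEL share no untreated array. Of 32 members 27 were lower in both lines, 12 of these by over 1.5-fold in both, and 23 had the more negative difference in K562. The shares were 84.4%, 37.5% and 71.9%, beside 39.2%, 9.25% and 52% of 8971 genes. Across these genes Pearson's r was 0.396 and Spearman's rho 0.396, beside 0.502 and 0.47 across the 8971 genes measured in both lines. Genes are not independent replicates, all arrays were scaled together, and no p is given. With 20 nM DAC in HEL cells 0 members were beyond 1.5-fold, against 6.05% of all genes lower and 4.23% higher. The medians were -0.07 and 0.11, with values from -0.43 for VARS1 to 0.49 for MARS2. WARS1 was at 9.26 with DAC and 9.27 without. The DAC doses of the lines differ, so their values are only set side by side.

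Before any treatment the lines differed most in WARS1, which was at 9.27 in HEL cells against 12.87 and 13.19 in K562 cells on the same probe set, 13.6-fold lower. SARS1 was at 11.31 in HEL cells, 3.63-fold lower than in K562 cells, and CARS1 at 10.71, 2.92-fold lower. EARS2 was 2.41-fold and IARS1 2.14-fold lower. Higher in HEL cells were CARS2, at 8.71 against 7.79 and 7.30, and SARS2, at 8.43 against 7.76 and 7.10. In all, 10 members were over 1.5-fold lower in HEL cells and 2 over 1.5-fold higher, against 30.9% and 25.1% of 10560 genes. The class medians were -0.11 and -0.12, beside -0.11 for all genes. The serine and cysteine pairs thus showed the cytosolic gene lower and the mitochondrial gene higher in HEL cells, with 1 HEL array and no test.

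Other genes of the pathway are given by lists that were set down with the member lists. In the list of the uncharged tRNA response and its eIF2alpha arm, 14 of 15 genes were measured, of which 0 passed the test with hemin, PMA or DAC. Over all genes these tests called 0%, 16.8% and 0.0607%. At 50 µM hemin their median was -0.46, and 7 were over 1.5-fold lower and 1, EIF2S1, over 1.5-fold higher, where all genes had 20.8% and 15.4%. TRIB3, a pseudokinase induced through ATF4, was at 12.78 and 12.66 untreated, 12.35 at 25 µM, 10.03 at 50 µM, 10.43 with DAC and 9.04 with PMA. CEBPG, a partner of ATF4 on DNA, was at 10.65 and 11.22 untreated, 10.48 at 25 µM, 8.36 at 50 µM and 7.23 with PMA. The log2 difference at 50 µM was -2.46 for ATF3 and -1.75 for DDIT3, stress-induced transcription factors. ATF4 itself, named after its values were seen, was at 13.07 and 13.41 untreated, 13.05 at 25 µM, 12.03 at 50 µM, 12.20 with DAC and 11.06 with PMA. EIF2AK4 was at 8.74 and 8.81 untreated, 9.21 at 50 µM and 7.74 with PMA. EIF2AK1 was at 11.79 and 11.56 untreated and 11.74 at 50 µM. With PMA in K562 cells the median of this list was -0.56. There 6 genes were over 1.5-fold lower and 1, PPP1R15A, higher, against 30.1% and 25.8% of all genes. PPP1R15A was at 11.62 with PMA against 10.39 and 9.69 untreated, and the log2 difference of CEBPB was -0.24. With PMA in HEL cells 1 gene was over 1.5-fold lower and 2, PPP1R15A and DDIT3, higher, against 16.8% and 14.9% of all genes.

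Of the mitochondrial translation factors 9 of 10 were measured, and 2 fell with PMA, the initiation factor MTIF2 (log2 change -1.79, adjusted p = 0.0269 from limma) and the elongation factor GUF1 (-1.17, adjusted p = 0.047), where 9.09% of all genes were called lower. At 50 µM hemin the median of the 9 was 0.45, and 3 were over 1.5-fold higher and 0 lower, against 15.4% and 20.8% of all genes. Of 8 measured helpers of tRNA charging, 0 passed any test, where PMA called 16.8% of all genes, hemin 0% and DAC 0.0607%. GATC, a subunit of the enzyme that makes mitochondrial glutaminyl-tRNA, was 1.06 higher on the log2 scale at 50 µM. Of 6 measured cytosolic elongation and termination factors 0 passed, against the same shares of all genes, and at 50 µM they were between -0.41 and 0.47. AIMP1, the measured scaffold of the multisynthetase complex, was at 11.18 and 11.64 untreated, 11.72 at 50 µM and 10.55 with PMA. Of 3 measured interferon response genes, looked at because interferon induces WARS1, 1 passed, where PMA called 16.8% of all genes. IRF1 rose with PMA (log2 change 2.61, adjusted p = 0.0142 from limma), while ISG15 was at 1.33, IFIT1 at -1.06 and WARS1 lower. At 25 and 50 µM hemin the log2 differences were -0.89 and -0.58 for IRF1 (adjusted p = 0.481 over both doses, limma), -1.06 and -1.06 for IFIT1 and -0.54 and 0.05 for ISG15. The untreated arrays of IFIT1 were at 2.82 and 5.20, and every treated K562 array was at 2.95. IFIT1 thus reached the minimum of 5 only in untreated replicate 2, and its differences rest on that array.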

How the data were processed

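The authors of the array study deposited log2 expression values for 27306 probe sets on 9 Affymetrix arrays. The submitters' processing notes list GCRMA with no version, a method that corrects background from probe sequence and puts arrays on 1 scale, so a shift shared by most genes would not be seen. The number of arrays limits the precision.

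From these values, in R 4.3.3 with limma 3.58.1, probe sets that name 1 gene and reach a log2 value of 5 in at least 1 array of the line were kept, and the brightest stands for its gene. The 6 K562 arrays were fitted in 4 groups (lmFit and eBayes), and p-values were adjusted over 9890 genes (Benjamini-Hochberg, threshold 0.05). The fit was tested on simulated data. HEL values carry no test.

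Members, lists and tests were chosen with earlier results of these data known. Full values were to be given for the 3 largest rises and falls of each class in each treated condition and for members called, and for up to 4 genes of other lists. Of 25 lists and groupings summarized, 7 were added later, among them the genes outside the multisynthetase complex, all members and all genes. The promoter search (5 motifs) was added after the values were seen. Alternatives covered scaling, filters, probe set choice, single arrays and the form of the test.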

Additional observations from a re-analysis of the deposited data

How the results depend on the processing

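The number of members called with hemin and with DAC stayed at 0 in every setting. With each dose as its own group the hemin comparison was that of 50 µM alone. The 6 called with PMA became 14 with the hemin dose as a number and 0 with each dose as its own group, and lay between 0 and 0 when any 1 untreated or hemin array was left out. The fits that called 0 with PMA had fewer residual degrees of freedom. Which members were called with PMA also moved with filter, scaling and probe set choice. EPRS1 and YARS1 were not called with no filter on dim probe sets, and EPRS1 was not with the mean of probe sets. AARS1 and NARS1 were called with quantile normalization, with centring and with a filter at a log2 value of 6. The cytosolic minus mitochondrial median, without each array in turn, ranged from -0.234 to -0.0605 at 25 µM hemin, -0.77 to -0.48 at 50 µM, -1.21 to -0.53 with PMA and -0.48 to -0.21 with DAC in K562 cells. With the mean of all kept probe sets it was -0.71 at 50 µM, and in HEL cells 0.0198 with PMA and -0.0253 with DAC.

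Counts of members beyond 1.5-fold moved where they were small. Without each array in turn, at 25 µM they ranged from 0 to 2 cytosolic lower, 0 to 2 mitochondrial lower and 0 to 3 mitochondrial higher. At 50 µM they ranged from 0 to 1 cytosolic higher and 0 to 1 mitochondrial lower, and with DAC from 0 to 3 cytosolic higher, 1 to 2 mitochondrial lower and 1 to 4 mitochondrial higher. Cytosolic genes higher at 50 µM numbered 3 with arrays centred on their medians and 1 with the mean of probe sets, which gave 2 with DAC. Mitochondrial genes higher with DAC numbered 2 with quantile normalization and with centring. A setting chosen after seeing the data, which counts the shared probe sets of MARS1, QARS1 and TARS2, moved no count of members by over 1.5 times.

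Signs of the fitted log2 change turned in 12 members with hemin, 2 with PMA and 4 with DAC, and no called change turned. Without each array in turn, the change with hemin ranged from -1.20 to 0.35 for VARS1, -0.42 to 0.55 for FARSA, -0.12 to 0.28 for NARS1, -1.47 to 0.35 for CARS1, -0.15 to 0.23 for EPRS1, -0.0392 to 0.31 for HARS1, -0.33 to 0.0695 for IARS1, -0.42 to 0.75 for MARS2, -0.30 to 0.32 for AARS2, -0.18 to 0.31 for CARS2, -0.0626 to 0.0838 for PARS2 and -0.18 to 0.63 for VARS2. With PMA it ranged from -1.09 to 0.46 for VARS1 and -0.0699 to 0.039 for YARS2, and with DAC from -0.24 to 1.31 for VARS1, -0.21 to 0.24 for TARS1, -0.0472 to 0.16 for IARS2 and -0.0293 to 0.0796 for YARS2. With the dose as a number it was -0.0617 for NARS1 and -0.0948 for EPRS1 with hemin, 0.0093 for YARS2 with PMA and -0.0102 for TARS1 with DAC. With each dose as its own group it was -0.12 for NARS1 and -0.15 for EPRS1. EPRS1 was at -0.0384 with the mean of probe sets, and YARS2 with PMA at 0.0068 with quantile normalization and 0.0141 with centring. The cause of these shifts was not tested. No paired analysis was possible because the labels give no replicate number that pairs arrays across groups.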
